A study of Mus musculus with 6 samples.

Results

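The serine and folate one-carbon enzymes described here are the products of 10 mouse genes, Phgdh, Psat1, Psph, Shmt1, Aldh1l1, Mthfd1, Shmt2, Aldh1l2, Mthfd1l and Mthfd2, of the 16759 genes in the table. They were found by symbol, and all 10 were present once. The set was put together by function, but Shmt1 and Aldh1l1 had already been seen to differ in opposite directions between the groups, so the EX and Con values of the 10 genes are given as a description. Where a member passed the threshold of the fit across all genes, this is given as a count and supports nothing, since the choice of members had used that contrast. Of the 10, 7 had a mean of at least 1 FPKM (fragments scaled by transcript length and library depth), and Psat1, Aldh1l2 and Mthfd1l lay under that level.

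Hind leg muscle of male C57BL/6J mice, 8 weeks old at the start, was sequenced with 1 library for each of 3 mice per group. The exercise group (EX) ran on a treadmill for 60 min a day, 5 days a week, for 6 weeks, covering 22 km per mouse, and was killed 24 h after the last session. The control group (Con) did no treadmill training, the time of its killing is not stated, and no altered allele is named for either group. Muscles were taken after perfusion with PBS, and the fat between them was removed. Estimated counts on genes totalled between 13845362 and 16240431 per library, and levels are given as CPM, which are those counts scaled by TMM to a common total, or as FPKM where genes are compared with each other. The muscle fibre markers Ckm, Acta1, Myh4, Tnnt3, Pygm, Mb, Actn3 and Atp2a1 together took between 181657 and 205284 CPM in the 6 libraries, and none of them was at 0. Since whole muscle was sequenced, fewer cells of a type and less RNA per cell cannot be told apart in any value below.

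Serine is made from the glycolytic intermediate 3-phosphoglycerate by Phgdh, Psat1 and Psph acting in turn. Serine hydroxymethyltransferase passes a carbon unit from serine to tetrahydrofolate and leaves glycine, with Shmt1 in the cytosol and Shmt2 in mitochondria. Mthfd enzymes convert that unit between oxidation states, and the Aldh1l enzymes burn 10-formyltetrahydrofolate to CO2 with release of NADPH, so the pathway feeds purine and thymidylate synthesis, methylation and redox reactions. In muscle with impaired mitochondria, the mitochondrial and serine-making enzymes are known as targets of the transcription factor Atf4, while Aldh1l1 is known as an abundant enzyme of liver and of astrocytes.

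The promoters of the pair that differed most and of Shmt2, the mitochondrial counterpart of Shmt1, are shown for comparison. They are the 250 bases before the RefSeq transcript start in the GRCm38.p6 build, 5′ to 3′ on the strand of the gene, and capitals mark CCAAT (the CCAAT box) and GGGCGG (the GC box) on either strand, with overlapping matches joined. Shmt1 lies on the minus strand at chr11:60811266-60811515, Aldh1l1 on the plus strand at chr6:90550543-90550792 and Shmt2 on the minus strand at chr10:127522445-127522694.
Shmt1: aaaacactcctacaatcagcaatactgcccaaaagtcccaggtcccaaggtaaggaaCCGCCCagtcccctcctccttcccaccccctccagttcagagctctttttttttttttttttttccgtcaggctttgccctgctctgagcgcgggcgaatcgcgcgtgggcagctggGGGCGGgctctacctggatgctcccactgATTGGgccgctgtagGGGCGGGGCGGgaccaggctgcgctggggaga
Aldh1l1: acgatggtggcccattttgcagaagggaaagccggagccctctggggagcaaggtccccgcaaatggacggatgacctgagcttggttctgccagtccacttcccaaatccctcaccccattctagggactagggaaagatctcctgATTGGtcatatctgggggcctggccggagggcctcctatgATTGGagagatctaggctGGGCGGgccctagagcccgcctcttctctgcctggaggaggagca
Shmt2: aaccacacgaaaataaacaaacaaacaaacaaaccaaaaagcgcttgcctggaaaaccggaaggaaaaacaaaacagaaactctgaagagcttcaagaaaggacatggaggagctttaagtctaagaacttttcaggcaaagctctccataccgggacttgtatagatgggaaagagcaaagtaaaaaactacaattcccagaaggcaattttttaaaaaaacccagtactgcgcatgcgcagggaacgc

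The Shmt1 window held 1 CCAAT box and 4 GC boxes. The Aldh1l1 window held 2 CCAAT boxes and 1 GC box, so the genes that differed in opposite directions both carried these elements. The Shmt2 window held neither and was 40.8% G or C, where the median of all 32851 windows was 52.4%. Over the 9 members with a window, 7 held a CCAAT box and 6 held a GC box, against 33.8% and 32.7% of all windows, and Psat1 was counted once although it had 2 windows. The CEBP-ATF response element, searched as TGATGNAA on both strands, was in 0 of the 9 and in 3.45% of all windows, and the E-box CACGTG was in 0 of the 9 and in 6.02%. A match or its absence describes only these letters in these windows.

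Of the cytosolic folate enzymes, Shmt1 was higher and Aldh1l1 lower in EX. Shmt1, which makes glycine and methylenetetrahydrofolate in the cytosol, stood at 10.2, 10.8 and 10.8 CPM in the 3 Con mice and at 19.8, 17.5 and 18.2 CPM in the 3 EX mice. All EX values lay above all Con values. The mean was 10.6 ± 0.373 CPM (SD, n = 3) in Con and 18.5 ± 1.18 CPM (SD, n = 3) in EX, a ratio of 1.74, and the fitted log2 fold change was 0.80 with a standard error of 0.08. These levels rested on 142 to 173 counts in a Con library and 275 to 314 counts in an EX library.

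Aldh1l1, the cytosolic 10-formyltetrahydrofolate dehydrogenase, went the other way. It stood at 25.1, 28.9 and 25.6 CPM in Con and at 13.3, 12.7 and 14.1 CPM in EX, so that all EX values lay below all Con values. The mean was 26.5 ± 2.09 CPM in Con and 13.4 ± 0.714 CPM in EX (SD, n = 3 each), which makes the Con level 1.99 times the EX level. The log2 fold change was -0.99 with a standard error of 0.08, and the counts ran from 350 to 455 in Con and from 199 to 222 in EX.

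Mthfd1, the trifunctional cytosolic enzyme that interconverts methylene-, methenyl- and formyltetrahydrofolate, was the most abundant of the 10. Its values were 58.6, 57.0 and 57.0 CPM in Con and 59.9, 64.8 and 61.4 CPM in EX. The groups did not overlap, but the means of 57.5 ± 0.925 and 62.0 ± 2.5 CPM were close, with a log2 fold change of 0.11 and a standard error of 0.05.

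**Figure D1:**
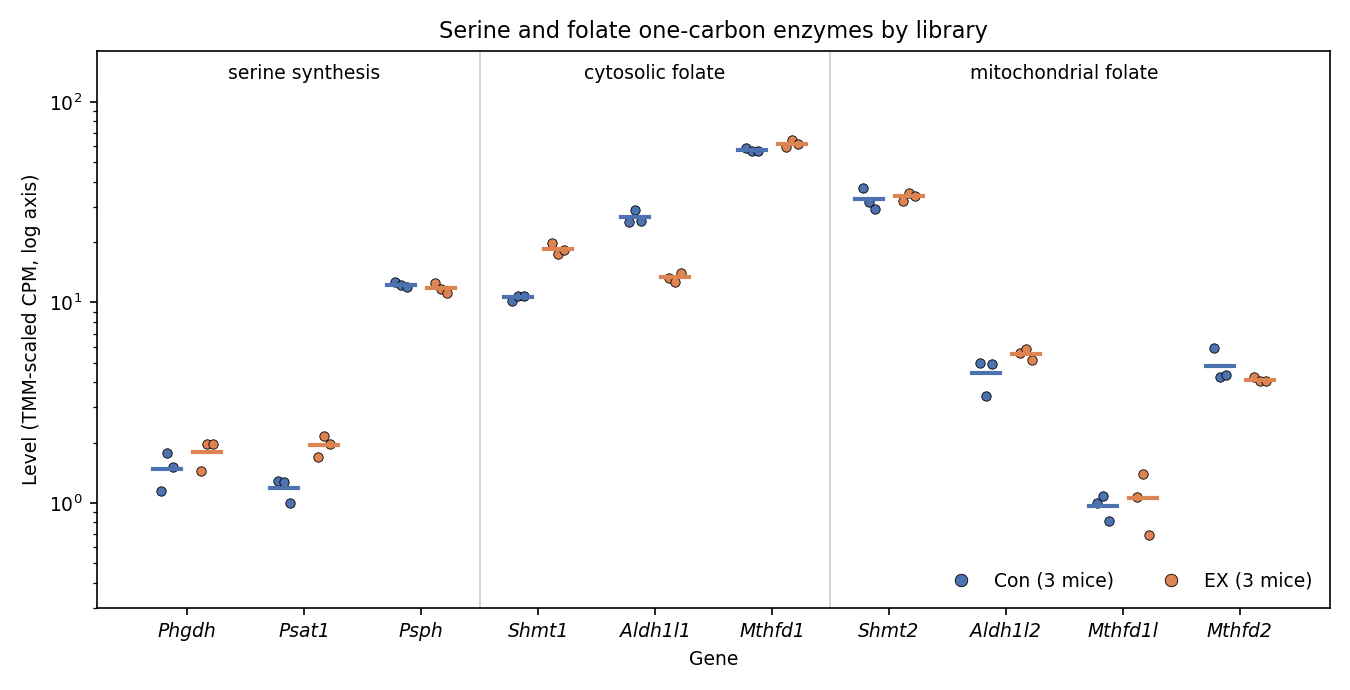
TMM-scaled CPM (log axis) of each of the 10 enzymes in the 3 Con (blue) and 3 EX (orange) libraries, with points for mice and bars for group means, grouped by step and compartment. Shmt1 lies higher and Aldh1l1 lower in all 3 EX mice, Mthfd1 is the highest gene at 57.0 to 64.8 CPM, and Shmt2 lies between 29.3 and 37.4 CPM in both groups together.

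None of the 4 mitochondrial enzymes differed by as much as Shmt1 or Aldh1l1 in these libraries. Shmt2, the mitochondrial counterpart of Shmt1, stood at 37.4, 31.6 and 29.3 CPM in Con and at 32.2, 35.2 and 34.0 CPM in EX. The groups overlapped, since Con replicate 1 was the highest and Con replicate 3 the lowest of the 6 libraries. The means were 32.8 ± 4.21 and 33.8 ± 1.53 CPM, and the log2 fold change was 0.05 with a standard error of 0.07, with the opposite sign in 4 of 15 alternatives.

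Mthfd2, the mitochondrial methylenetetrahydrofolate dehydrogenase best known from dividing and embryonic cells, was measured at 5.95, 4.26 and 4.33 CPM in Con and at 4.23, 4.08 and 4.06 CPM in EX. The EX values lay just below the Con values, and Con replicate 1 stood apart from the other Con mice. The log2 fold change was -0.22 with a standard error of 0.15, and it ranged from -0.31 to -0.06 when 1 library was left out.

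Aldh1l2, the mitochondrial counterpart of Aldh1l1, stood at 4.98, 3.42 and 4.95 CPM in Con and at 5.59, 5.84 and 5.19 CPM in EX. The EX mice lay above the Con mice in CPM, while in FPKM the groups touched at 0.89. The log2 fold change was 0.32 with a standard error of 0.15, so its sign was opposite to that of Aldh1l1. It ranged from 0.16 to 0.41 when 1 library was left out. Mthfd1l, the mitochondrial enzyme that releases formate to the cytosol, was the lowest of the 10 with 14, 17 and 13 counts in Con and 17, 22 and 11 counts in EX. Its groups overlapped, with a log2 fold change of 0.13, a standard error of 0.31 and the opposite sign in 2 of 13 alternatives. At counts this low a moderate difference may be missed, which was not tested.

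The serine-making enzymes were low in this muscle, apart from the last of them. Phgdh, which commits 3-phosphoglycerate to serine, had 16, 28 and 24 counts in Con and 23, 31 and 31 counts in EX, or means of 1.48 ± 0.318 and 1.80 ± 0.301 CPM. The groups overlapped, and the log2 fold change was 0.27 with a standard error of 0.24, ranging from 0.13 to 0.42 when 1 library was left out. Psat1, the aminotransferase of the pathway, had 18, 20 and 16 counts in Con and 27, 34 and 31 counts in EX.

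All EX values of Psat1 lay above the Con values, at 1.94 ± 0.231 against 1.18 ± 0.157 CPM, a ratio of 1.64 and a log2 fold change of 0.71 with a standard error of 0.24. It passed the threshold of an adjusted p-value under 0.05 in the fit without a filter, but did so in only 2 of 13 alternatives, and leaving out any 1 library ended that call. In the fits without Con replicate 1 and without EX replicate 1, the log2 fold change of Psat1 was 0.77 and 0.81 beside 0.77 and 0.75 for Shmt1, so the order of the pair was not fixed. Psph, the phosphatase that completes serine, stood at 12.6, 12.2 and 11.9 CPM in Con and at 12.5, 11.7 and 11.2 CPM in EX. The groups overlapped, with a log2 fold change of -0.05 and a standard error of 0.09. It ranged from -0.09 to -0.01 when 1 library was left out, and was -0.17 with limma on log2(TPM + 0.1).

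**Figure D2:**
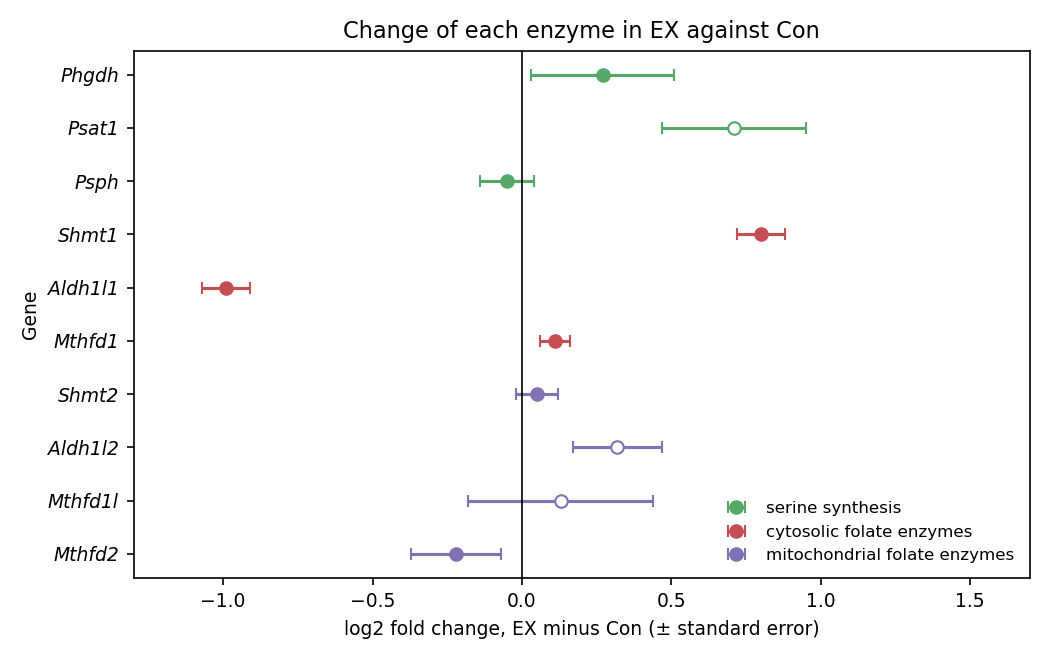
Log2 fold change of EX against Con (horizontal axis) for each enzyme, with bars of 1 standard error on each side, colours for the 3 groups of enzymes, and open points for the 3 genes under the filter. Shmt1 at 0.80 and Aldh1l1 at -0.99 sit farthest from 0 in each direction, and the 4 mitochondrial enzymes lie between -0.22 and 0.32.

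Over the 10 genes, EX lay above Con for Psat1, Shmt1, Mthfd1 and Aldh1l2, below Con for Aldh1l1 and Mthfd2, and overlapped it for the other 4. Groups did not overlap for 33.7% of the genes above the filter and for 26.7% of all genes fitted. An adjusted p-value under 0.05 in edgeR's quasi-likelihood test was reached by 2 of the 7 members above the filter, Shmt1 and Aldh1l1, where 17.9% of the 10883 genes tested reached it, 9.11% higher and 8.8% lower in EX. With the fit without a filter for the other 3 members, 3 of 10 reached it, where 12% of 16716 genes did. Of the same 16716 genes, 6.08% reached it and were higher in EX, as Psat1 was. The members were chosen with this contrast in view, and nothing is read from these shares. The median log2 fold change was 0.05 over the 7 members above the filter and 0.00 over all genes tested, and it was 0.12 over the 10 members with the 3 from the fit without a filter.

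Compared per length in FPKM, the order of the levels in Con was Mthfd1 at 19.5, Shmt2 at 16.8, Psph at 9.75, Aldh1l1 at 9.73, Shmt1 at 6.2 and Mthfd2 at 2.75, followed by Phgdh, Aldh1l2, Psat1 and Mthfd1l at 0.973, 0.797, 0.653 and 0.29. Psph and Aldh1l1 did not differ beyond their spread, nor did Phgdh and Aldh1l2 or Aldh1l2 and Psat1. In EX, Mthfd1 at 20.2 and Shmt2 at 16.7 FPKM stayed in front, Shmt1 came next at 10.4 and overlapped Psph at 8.92, and Aldh1l1 followed at 4.71. Mthfd2 at 2.26, Phgdh at 1.13, Psat1 at 1.03, Aldh1l2 at 0.95 and Mthfd1l at 0.303 FPKM closed the order, and the ranges of Phgdh and Psat1 and of Psat1 and Aldh1l2 overlapped. Shmt1 and Aldh1l1 had thus changed places in the order, with Shmt1 under Aldh1l1 in all 3 Con mice and above it in all 3 EX mice. The Psph values on the FPKM and count scales moved apart by a factor of up to 1.11 between libraries, and by no more than 1.03 for the other 9 genes.

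The balance between compartments followed from these levels. Shmt1 made up 23.6%, 28.0% and 29.6% of the summed FPKM of Shmt1 and Shmt2 in Con, and 41.2%, 36.1% and 37.8% in EX, or means of 27.1% ± 3.12 and 38.4% ± 2.58 (SD, n = 3 each). Mitochondrial Shmt2 was therefore the larger part in every mouse. Aldh1l1 made up 91.1%, 94.6% and 91.4% of the sum of Aldh1l1 and Aldh1l2 in Con and 82.9%, 81.7% and 84.9% in EX, so the cytosolic form stayed the larger part. For Mthfd1 and Mthfd1l the cytosolic share was 98.5% in both groups, with SDs of 0.185 and 0.451.

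The opposite differences cancelled in the cytosolic sum. Shmt1, Aldh1l1 and Mthfd1 together had 34.6, 36.2 and 35.3 FPKM in Con and 35.5, 35.0 and 35.2 FPKM in EX, with means of 35.4 ± 0.818 and 35.3 ± 0.27. Without Aldh1l1 the sum was 25.7 ± 0.191 in Con and 30.5 ± 0.337 in EX. The mitochondrial sum was 20.7 ± 2.57 and 20.2 ± 0.605 FPKM, the sum of the serine-making enzymes was 11.4 ± 0.333 and 11.1 ± 0.762, and that of all 10 was 67.4 ± 2.17 and 66.5 ± 0.814.

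**Figure D3:**
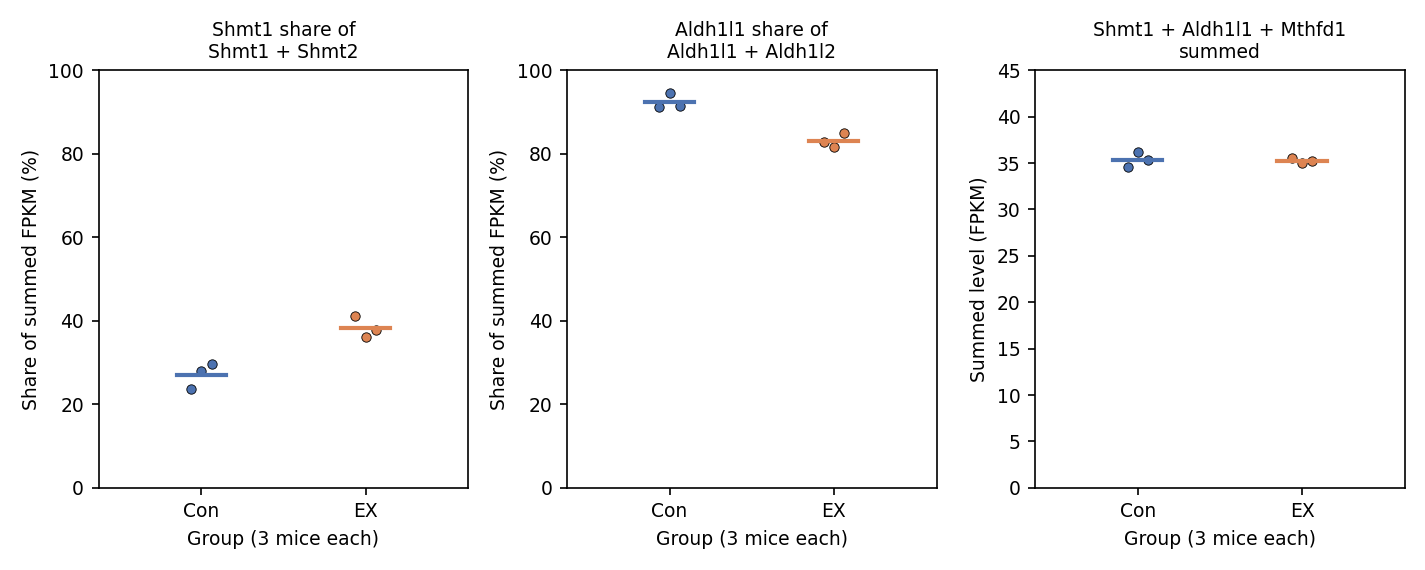
Share of the cytosolic form in the summed FPKM of Shmt1 and Shmt2 (left) and of Aldh1l1 and Aldh1l2 (middle), in percent, and the summed FPKM of the 3 cytosolic enzymes (right), for 3 Con and 3 EX mice, with points for mice and bars for means. The Shmt1 share is higher and the Aldh1l1 share lower in all 3 EX mice, while the cytosolic sum is 35.4 FPKM in Con and 35.3 FPKM in EX.

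Markers of other cell types, and transcripts typical of liver, also differed between the groups. Of the 14 liver markers, 11 were above the filter and 8 of these fell, with a summed level of 124 to 128 CPM in Con and 69.6 to 76.5 CPM in EX, and no marker was at 0 in any library. Alb, the serum protein albumin made by liver and the most abundant of them, had a log2 fold change of -0.75 (adjusted p = 1.3e-11). Of the 8 Schwann cell markers, 5 were above the filter and 4 of these fell, and the list's sum was 113 to 125 CPM in Con and 86.3 to 89.4 CPM in EX with none at 0. Macrophage markers were higher in EX for 7 of the 8 above the filter, with a sum of 47.3 to 50.7 CPM in Con and 85.1 to 92.4 CPM in EX, and none of the 10 listed at 0. The source of the liver transcripts in hind leg muscle was not tested, nor was the part of any of these lists in the values of Shmt1 and Aldh1l1.

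Several other marker lists moved as well. All 8 slow fibre markers rose, from a sum of 142 to 149 CPM to one of 414 to 444 CPM. Their log2 fold changes ran from 0.40 for Myl3 to 6.65 for Myh7, so the sum hides far larger differences. Myh7, named after its values were seen, stood at 0.933, 0.891 and 1.19 CPM in Con and 99.5, 111 and 96.7 CPM in EX. The slow fibre transcripts of the groups thus differed widely, and which hind leg muscles were taken from each mouse is not stated. Fibroblast and tendon markers rose for 6 of 10, from 1037 to 1077 CPM to 1432 to 1453 CPM, and markers of regenerating fibres, led by Actc1, for 3 of 5, from 553 to 616 CPM to 1649 to 1749 CPM, with Mymk at 0 in at least 1 library. In the fit without a filter, the other 3 of that list also rose, namely Myh3 (2.95, adjusted p = 1.5e-17), Myh8 (2.10, adjusted p = 9.5e-14) and Mymk (adjusted p = 2.4e-08). The same fit gave calls to Cps1 among the liver markers and Sox10 among the Schwann cell markers, both lower, and to Lep and Plin1 among the fat cell markers, both higher, and these 4 genes, Myh3 and Myh8 were named after their values were seen. The endothelial list held 5 of 10 that fell and 1 that rose, with sums of 829 to 848 and 734 to 753 CPM.

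Fat cell markers rose for 6 of 9 and fell for 1, but their sum was 1147 to 1199 CPM in Con and 1152 to 1157 CPM in EX, with Lep at 0 in at least 1 library. Most of that sum came from Lpl, which fell from 486 to 369 CPM, Plin4, which rose from 405 to 500 CPM, and Fabp4, at 229 and 215 CPM (Lpl and Plin4 were named after their values were seen). Muscle fibre markers rose for 4 of 8 and fell for 1, Mb, named after its values were seen. The 3 proliferation markers above the filter did not pass the test, while Mki67, named after its values were seen, lay under the filter and rose in the fit without one (1.47, adjusted p = 0.0014), and the list summed to 43.6 to 50.5 CPM in Con and 49.9 to 52.9 CPM in EX, with Ccnb1 at 0 in at least 1 library. The part of these cells in the values of the 10 enzymes was not tested.

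**Figure D4:**
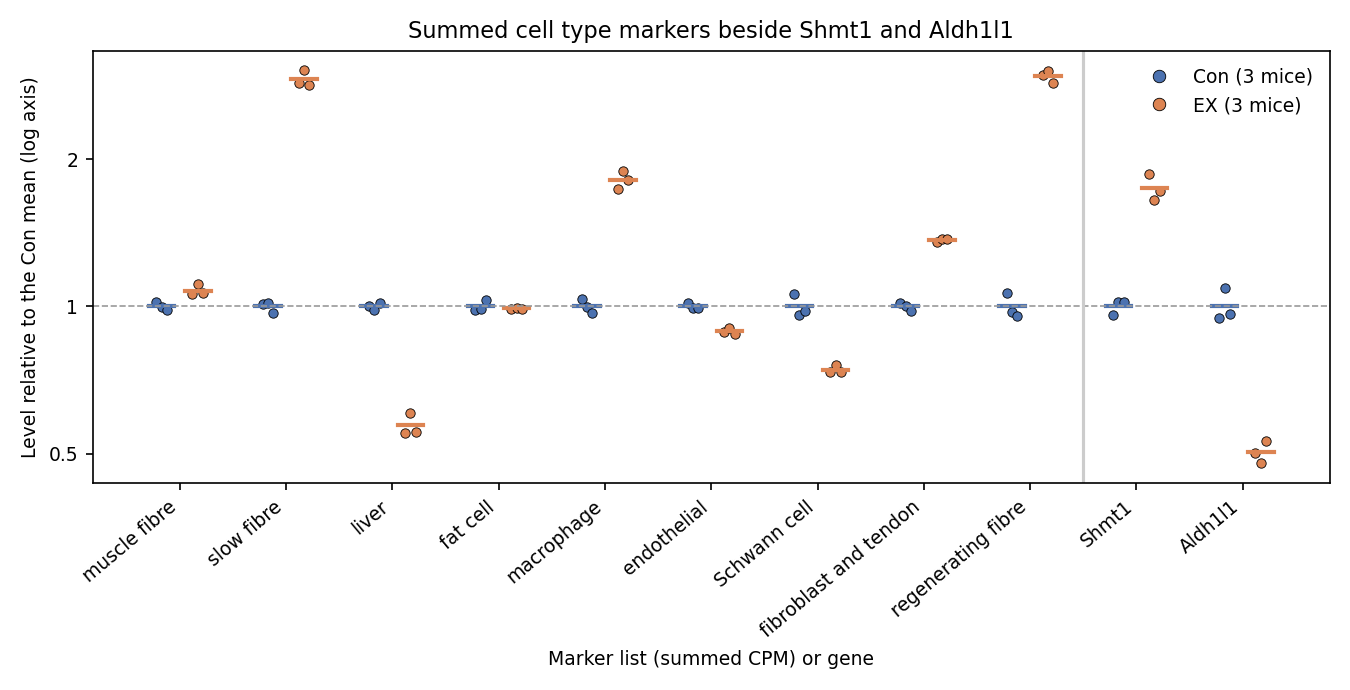
Summed CPM of each marker list, and the CPM of Shmt1 and Aldh1l1, each divided by its Con mean (log axis), for 3 Con (blue) and 3 EX (orange) mice, with points for mice and bars for means. Liver, Schwann cell and endothelial sums and Aldh1l1 lie below all Con mice in all 3 EX mice, muscle fibre, slow fibre, macrophage, fibroblast and tendon and regenerating fibre sums and Shmt1 lie above them, and the fat cell sums overlap.

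Reads from overlapping genes can also enter these values, because the strand of the library kit and of the counting is not given in the sources used here. In the GENCODE M21 annotation, Shmt1 shares 184 exonic bases with Smcr8 on the opposite strand, whose log2 fold change of -0.10 did not pass (adjusted p = 0.20) and had the sign opposite to that of Shmt1. Aldh1l1 shares 438 exonic bases with the opposite-strand gene Gm15756, and Mthfd1 shares 37 with Gm47525, both not analysed here. Psph shares 452 bases with the chaperonin gene Cct6a, which rose by 0.23 (adjusted p = 1.4e-04), Shmt2 shares 32 with Ndufa4l2, which was lower at -0.45 (adjusted p = 0.003), and Aldh1l2 shares 1056 with D10Wsu102e (-0.17, adjusted p = 0.31). The counts of all 10 members were whole in every library.

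The genes around the 10 enzymes were taken from lists written by function. Of 114 such genes, 112 were in the table and 85 above the filter, and of these 16 rose and 6 fell in EX, or 25.9% against the 17.9% of all genes tested. The split by direction depended on the scaling, with 8 higher and 8 lower in limma on log2(FPKM + 0.1) and 7 higher and 12 lower in limma on log2(TPM + 0.1). Their median log2 fold change was 0.03. Values in parentheses are log2 fold changes, with the standard error where ± is given. The p-values are those of edgeR's quasi-likelihood test adjusted over all 10883 genes. They set each group difference against the spread between 3 mice per group, which the fit moderates across genes. A difference between whole groups in dissection or handling lies outside that spread.

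Folate uptake and retention held 2 genes that rose among 5 tested. Folr2, a folate receptor known from macrophages, stood at 1.0, 0.891 and 1.51 CPM in Con and 2.46, 2.80 and 2.16 CPM in EX, with all EX values above all Con values. Its log2 fold change was 1.11 ± 0.24 (standard error) at an adjusted p of 0.0012. A link to the rise of the macrophage markers given above was not tested. Fpgs, which adds the glutamate tail that keeps folate in the cell, rose from 10.5 ± 0.632 to 13.1 ± 0.813 CPM (log2 fold change 0.31, adjusted p = 0.019). Ggh, which removes that tail, had the highest FPKM of the list and a log2 fold change of 0.08 (adjusted p = 0.65).

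Of 6 other folate interconversion enzymes tested, Qdpr, which regenerates tetrahydrobiopterin, rose from 39.2 ± 1.02 to 48.5 ± 1.01 CPM (log2 fold change 0.31, adjusted p = 7.4e-05), and the other 5 did not pass. In the glycine cleavage system, which yields a mitochondrial carbon unit from glycine, 1 of 3 tested genes rose, and this was Dld (0.11, adjusted p = 0.028), the dehydrogenase subunit that it shares with pyruvate dehydrogenase. Its decarboxylase Gldc, chosen after its values were seen, lay under the filter at 0.311 CPM in Con and 0.147 CPM in EX.

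In the methionine cycle and methyl transfer list, 3 of 14 tested genes rose. Gamt, which methylates guanidinoacetate to creatine, stood at 9.97, 8.91 and 8.53 CPM in Con and 15.3, 15.3 and 14.9 CPM in EX (0.74 ± 0.09 on the log2 scale, adjusted p = 8.9e-07). Mat2a, which makes S-adenosylmethionine, rose from 419 ± 18.5 to 515 ± 16.8 CPM (0.30, adjusted p = 1.2e-06). Amd1, which decarboxylates S-adenosylmethionine for polyamine synthesis, rose from 2603 ± 123 to 3433 ± 72.6 CPM (0.40, adjusted p = 1.7e-09). Its counts were not whole in all libraries, which leaves its level uncertain, and why they were not whole was not tested. The remaining 11 did not pass. Mat1a, the liver form of the S-adenosylmethionine synthetase and also on the liver marker list, lay under the filter and fell in the fit without one (-0.97, adjusted p = 0.0019), and it was named after its values were seen.

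The choline and betaine oxidation list had 2 tested genes, and neither passed. They were Aldh7a1, a betaine aldehyde dehydrogenase (-0.09, adjusted p = 0.37), and Bhmt, betaine-homocysteine methyltransferase (-0.53, adjusted p = 0.051), the latter named after its values were seen. Among 8 transsulfuration and glutathione genes tested, Chac1 fell and Chac2 rose. Chac1, a glutathione-degrading enzyme, stood at 305, 280 and 276 CPM in Con and 155, 162 and 157 CPM in EX (-0.86 ± 0.04 on the log2 scale, adjusted p = 4.9e-15), and Chac2, which does the same reaction, rose from 16.7 to 19.7 CPM (0.23, adjusted p = 0.032).

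Purine synthesis takes its formyl groups from 10-formyltetrahydrofolate. Of 12 tested genes of the list, Paics (0.15, adjusted p = 0.012) and Prps1 (0.17, adjusted p = 0.028) rose, and Pfas (-0.19, adjusted p = 0.0099) and Impdh1 (-0.31, adjusted p = 0.0081) fell. The muscle adenylosuccinate synthase Adssl1 had the highest FPKM of the list and a log2 fold change of -0.06 (adjusted p = 0.23), and it passed in 2 of 15 alternatives, limma on log2(TPM + 0.1) (-0.16) and without Con replicate 1 (-0.09). Differences of this list were small in both directions, and the enzymes that use the formyl groups, Gart (0.09, adjusted p = 0.25) and Atic (0.10, adjusted p = 0.26), named after their values were seen, did not pass.

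**Figure D5:**
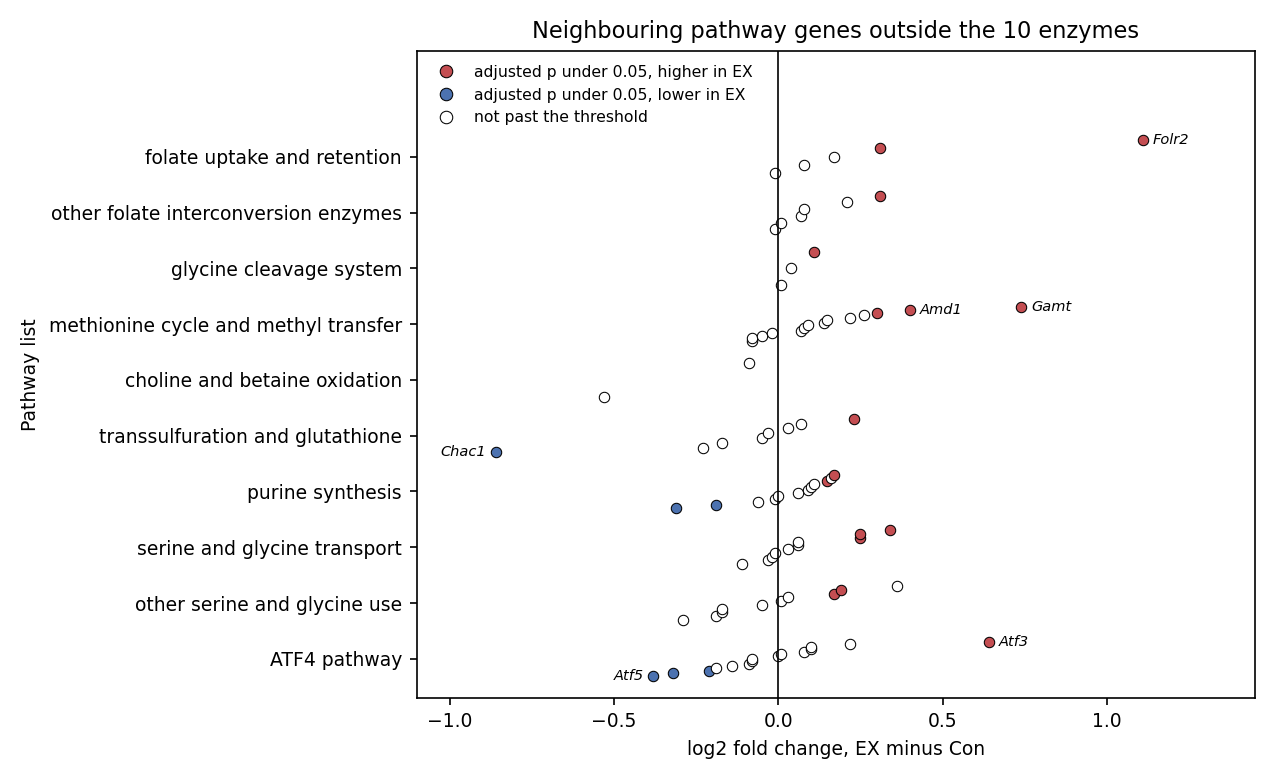
Log2 fold change of EX against Con (horizontal axis) for the 85 tested genes of 10 pathway lists outside the 10 enzymes, with 1 point per gene, red and blue where the adjusted p was under 0.05 and white where it was not. Folr2 at 1.11 and Gamt at 0.74 lie farthest to the right and Chac1 at -0.86 farthest to the left, with most other genes near 0.

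Serine and glycine transport had 3 of 10 tested genes that rose. Slc38a2, a sodium-coupled carrier of small neutral amino acids, stood at 230, 241 and 243 CPM in Con and 312, 287 and 302 CPM in EX (0.34 ± 0.04 on the log2 scale, adjusted p = 3.3e-07). Slc1a5, a neutral amino acid exchanger, rose by 0.25 (adjusted p = 0.024), and Sfxn5, a mitochondrial carrier of the sideroflexin family, by 0.25 (adjusted p = 0.049). Slc38a4 had the highest FPKM of the list and a log2 fold change of 0.06 (adjusted p = 0.31), which turned to -0.03 with limma on log2(TPM + 0.1). Among 10 other users of serine or glycine, Alas1, which starts haem synthesis from glycine, rose from 142 ± 2.34 to 162 ± 2.41 CPM (0.19, adjusted p = 8.5e-04), and Grhpr, a glyoxylate and hydroxypyruvate reductase, rose by 0.17 (adjusted p = 0.044).

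The list of Atf4 pathway genes went in both directions, with 1 higher and 3 lower of 15 tested. Its median log2 fold change was -0.08. The pathway is known to drive Phgdh, Psat1, Shmt2 and Mthfd2. These, and Atf4 targets placed on other lists, are not in this count or median. Atf4 itself stood at 206, 206 and 216 CPM in Con and 225, 226 and 225 CPM in EX (0.10 ± 0.04 on the log2 scale, adjusted p = 0.054), so that the groups did not overlap but the test was not passed, and the sign turned (-0.02) with limma on log2(TPM + 0.1), while without Con replicate 3 it passed (0.13, adjusted p = 0.033). Atf3, a stress-induced factor, rose from 3.24 ± 0.514 to 5.05 ± 0.576 CPM (0.64, adjusted p = 0.0051). Atf5, a factor of the same family, fell from 25.6 ± 2.46 to 19.7 ± 0.807 CPM (-0.38, adjusted p = 4.2e-04), as did Vldlr, a lipoprotein receptor (-0.32, adjusted p = 1.6e-07), and Cebpg, a partner of Atf4 (-0.21, adjusted p = 0.0031). Asparagine synthetase Asns, a target of Atf4 named after its values were seen, had a log2 fold change of -0.14 (adjusted p = 0.72).

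Several of these calls were close to the threshold. Sfxn5 kept its call in 1 of 14 alternatives, Grhpr in 2 of 15, Chac2 in 5, Fpgs and Prps1 in 7, Dld and Slc1a5 in 8, Paics in 10, Pfas in 13 and Impdh1 and Alas1 in 14. Folr2, Qdpr, Gamt, Amd1, Mat2a, Chac1, Slc38a2, Atf3, Atf5, Vldlr and Cebpg kept theirs in every alternative run, and without EX replicate 3 the pathway genes past the threshold were 14, of which 10 were higher, while without Con replicate 2 the higher ones were 9.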

How the data were processed

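RNA sequencing of hind leg muscle from 3 Con and 3 EX mice was analysed from the table the authors deposited, which holds an estimated count, an FPKM and a TPM value per gene and library. Per the paper's methods, the authors filtered 150 bp paired-end DNBseq reads, mapped them to GRCm39 with HISAT and used DESeq, whereas the submitters' processing notes list cutadapt, featureCounts, MultiQC and the build GRCm38.p6, so the build of the deposited counts is uncertain. FPKM and TPM are the authors' normalization by length and depth, and the deposited estimated counts are not normalized. The 6 columns of group means were not used.

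Estimated counts were rounded to whole numbers (between 4.18% and 4.44% of values per library were not whole), scaled by TMM and tested with edgeR 4.0.16 (glmQLFit and glmQLFTest, R 4.3.3), with Benjamini-Hochberg adjustment and a threshold of 0.05, over the 10883 genes whose mean reached 1 FPKM. For members below that level, the values come from an unfiltered fit of 16716 genes. CPM use the TMM-scaled totals. A count of 0 allows up to 3 counts, or 0.188 to 0.214 CPM, and this covers counting error only. Fold changes of limma on FPKM or TPM are on the log2(value + pseudocount) scale, which understates changes of low genes. Alternatives were DESeq2 1.42.0, limma 3.58.1 on log2(FPKM + 0.1), log2(FPKM + 1) and log2(TPM + 0.1), RLE factors, totals without the 20 most abundant genes, no filter or a mean of 5 FPKM, a replicate block and each library left out.

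The members and lists were chosen with earlier results of these data known. Named genes are the 10 members and, from each pathway list, up to 4 genes past the threshold whose groups do not overlap and the gene with the highest mean FPKM, and from marker lists the most abundant genes and any at 0. Genes named outside this rule are said to be so, apart from overlapping genes on the opposite strand, which were taken from the annotation. Adssl1 and Adss were matched by synonym, and Slc6a20a and Sptlc3 were not analysed here. Promoter sequences and overlaps come from RefSeq and GENCODE M21, both on GRCm38. No 2 libraries agreed within sampling noise.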

Additional observations from a re-analysis of the deposited data

How the results depend on the processing

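The log2 fold change of Shmt1 was 0.66 with limma on log2(FPKM + 1) and 0.70 with limma on log2(TPM + 0.1), and ran from 0.75 to 0.84 when 1 library was left out. That of Aldh1l1 ran from -1.07 to -0.91 over 15 alternatives. Both genes were chosen with this contrast known, so these ranges describe the settings only. Shmt2 took the opposite sign in 4 alternatives and Mthfd1l in 2, all of them not past the threshold. The calls of the reported test were 991 higher and 958 lower. DESeq2 gave 1228 calls, 643 higher and 585 lower, 10 of the higher ones pathway genes. Limma on log2(FPKM + 0.1) and on log2(FPKM + 1) gave 411 higher calls each, 8 of them pathway genes in each, and 1037 and 1032 lower, with 8 pathway genes in each. Limma on log2(TPM + 0.1) gave 340 higher and 1684 lower calls, 7 and 12 of them pathway genes, and turned Slc38a4 to -0.03 and Atf4 to -0.02. The median log2 fold change of all genes was -0.056 and -0.049 with FPKM and -0.091 with TPM, against -0.001 in the reported test, and the cause was not tested. Totals without the 20 most abundant genes gave 772 higher and 1259 lower calls. With 1 library left out, calls ran from 1344 to 1857, those in pathway genes from 14 to 23, and the higher ones among these from 9 (without Con replicate 2) to 15.

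With the replicate number as a block 1782 genes passed, 1766 of them shared with the 1949 of the unblocked test. Correlations of same-numbered mice were -0.08, -0.05 and -0.07, so the numbers do not pair the mice. Depth limits Mthfd1l, Phgdh and Psat1, at 11 to 34 counts per library.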
